A study of Ovis aries with 16 samples.

Results

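LOC114118399 and LOC105608013 are sheep genes entered in the deposited table of long non-coding RNAs (lncRNAs), where they stood near the top in both liver and muscle. They were chosen by that abundance, selected on their normalised reads in the lncRNA table and their share of its recovered reads, and are 2 of its 2973 genes and 2 of 4920 features in the 4 tables of the series. Levels, shares, ranks and ratios between tissues are therefore given as descriptions, without a test. The libraries came from 8 female sheep: 4 prenatal T ewes, exposed to testosterone in the womb (ewes 48, 185, 233 and 255), and 4 control ewes (98, 131, 132 and 201). Liver and muscle were taken from each ewe, which gave 16 small RNA libraries in 4 groups of 4. The labels used here state neither the dose and timing of testosterone nor the age of the ewes.

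A lncRNA is a long transcript that codes for no protein, and many lncRNA genes hold the precursors of microRNAs (miRNAs) or small nucleolar RNAs (snoRNAs) in their transcripts. Small RNA libraries capture short RNAs, so a read in such a library that is assigned to a lncRNA gene stands for a short RNA or a fragment and not for the intact long transcript. Reads assigned to a gene in bulk tissue cannot tell fewer expressing cells from less RNA per cell. miR-125b, which belongs to the family of the worm developmental regulator lin-4, and miR-16, a miRNA with targets in the cell cycle, are both found in many tissues.

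In the annotation at hand (RefSeq genes of the sheep assembly ARS-UI_Ramb_v3.0, used for names and neighbours) LOC114118399 is not listed. LOC105608013 is listed there as a pseudogene that overlaps KCNRG, a gene for a potassium channel regulator, and the lncRNA LOC105608012. The protein-coding genes nearest to it on either side are TRIM13, a gene for a ubiquitin ligase, and DLEU7. In the human genome this neighbourhood holds DLEU2, whose transcript carries miR-15a and a copy of miR-16, and the other human copy of miR-16 lies with miR-15b in SMC4, a condensin subunit gene. The sheep miR-16 entry analysed here, MIR16B, is placed inside SMC4 by the annotation, with TRIM59 and IFT80 as the nearest other protein-coding genes. MIR125B, the miR-125b entry of the miRNA table, lies in the lncRNA LOC105602212, between TVP23B and LOC101111388.

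Values were deposited as normalised reads, reads divided by a size factor of the library, and each library's reads could be recovered from them. The recovered lncRNA reads numbered 38399 to 124174 per liver library and 122749 to 926854 per muscle library. Of the liver-enriched miRNAs listed as tissue markers, 2 of 5 were in the data, MIR194 and MIR148A. Together they held 99722 to 146084 RPM (here reads per 1000000 miRNA reads) in prenatal T liver and 107239 to 136692 in control liver, against 1865 to 3232 in prenatal T muscle and 2166 to 3507 in control muscle. The muscle miRNA MIR133, the only 1 of 6 muscle markers in the data, held 499836 to 563959 RPM in 7 muscle libraries and 371628 in the muscle of prenatal T ewe 255. In liver MIR133 held 290 to 639 RPM in 7 libraries and 2274 in the liver of control ewe 98, where small nuclear RNAs also took 0.517% of reads, against 0.0956% to 0.194% in the other 7 livers. Of 4 erythroid markers MIR16B was in the data, with 3000 to 6074 RPM in prenatal T liver and 4651 to 6057 in control liver, and 2070 to 4739 in prenatal T muscle and 2240 to 2876 in control muscle. Of 4 leukocyte markers MIR150 was in the data, with 878 to 1551 RPM in prenatal T liver and 1064 to 1844 in control liver, and 1888 to 5312 in prenatal T muscle and 2933 to 3860 in control muscle. The endothelial and stromal markers in the data, 3 of 5, summed to 76422 to 114364 RPM in prenatal T liver and 73473 to 103668 in control liver, and to 19512 to 28433 in prenatal T muscle and 26973 to 40355 in control muscle. Library numbers in the labels fall into a lower and a higher run: the livers of ewes 48 and 98 and 7 of the 8 muscles are in the lower run, and the other 6 livers and the muscle of ewe 255 in the higher. Fold changes that rest on ewe 98 in liver or ewe 255 in muscle are given with and without them.

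LOC114118399 was the more abundant of the pair in every library. In prenatal T liver it had 20446 reads in ewe 48, 15250 in ewe 185, 6276 in ewe 233 and 13796 in ewe 255. In control liver it had 7471 reads in ewe 98, 8748 in ewe 131, 11059 in ewe 132 and 14675 in ewe 201. These reads, which follow the depth of each library, overlapped between the groups. In prenatal T muscle it had 20633 reads in ewe 48, 11787 in ewe 185, 9632 in ewe 233 and 3938 in ewe 255. In control muscle it had 8898 reads in ewe 98, 11081 in ewe 131, 12974 in ewe 132 and 8832 in ewe 201. The prenatal T muscle libraries spread over the wider range, and the control muscle values lay within it.

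The reads of LOC114118399 were the same in number as those of MIR125B in the miRNA table. The numbers were identical in 15 of 16 libraries, and in the liver of control ewe 131 they stood at 8748 and 8747. Over all libraries LOC114118399 had 185496 reads and MIR125B 185495. For comparison, 109 lncRNAs were set against 247 features of the other 3 classes, each with at least 100 reads over all libraries. Only 3 of these lncRNAs had a partner within 2 reads in every library. The other 2 were LOC114116957 with the snoRNA LOC114117067, equal in 9 libraries, and LOC114108991 with the snoRNA LOC114109250, equal in 10. These 2 lncRNAs had 10732 and 323 reads over all libraries, so a gap of 2 reads is a larger part of their counts. LOC105602212, the annotated host of MIR125B, is a separate entry of the lncRNA table, and its reads were 0.366 to 0.633 times those of MIR125B in liver and 0.122 to 0.279 times in muscle. Whether single reads were counted under both LOC114118399 and MIR125B was not tested, since the tables hold totals only.

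LOC105608013 matched no feature of another class read for read; the nearest, MIR191, differed from it by up to 2187 reads in a library. In prenatal T liver it had 8969 reads in ewe 48, 9254 in ewe 185, 4734 in ewe 233 and 7040 in ewe 255. In control liver it had 4041 reads in ewe 98, 5310 in ewe 131, 7403 in ewe 132 and 8826 in ewe 201. Both liver groups ran over a similar range. In prenatal T muscle it had 7477 reads in ewe 48, 3361 in ewe 185, 3416 in ewe 233 and 1763 in ewe 255. In control muscle it had 4448 reads in ewe 98, 4297 in ewe 131, 4515 in ewe 132 and 3492 in ewe 201. As for LOC114118399, ewe 48 gave the most reads in prenatal T muscle and ewe 255 the fewest, in step with the depth of those libraries.

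The feature whose reads kept the steadiest proportion to those of LOC105608013 was MIR16B. The ratio of LOC105608013 reads to MIR16B reads lay between 3.02 and 3.96 in the 16 libraries, with a median of 3.59 and a standard deviation of 0.11 on the log2 scale. The next steadiest feature, MIR25, had a standard deviation of 0.24. By group the ratio averaged 3.78 ± 0.161 in prenatal T liver and 3.50 ± 0.326 in control liver, and 3.43 ± 0.223 in prenatal T muscle and 3.56 ± 0.275 in control muscle (SD, n = 4 each). The groups overlapped, also between the tissues, and the lowest ratio was that of the liver of control ewe 98. MIR16B is also the only 1 of the 4 listed erythroid markers in the data, and miR-16 is found in many tissues. This measure of steadiness was chosen after the data had been seen, and the libraries share a depth that raises all features together, so the ratio is a description. Whether LOC105608013 counts reads of a miRNA was not tested. The other entries next to it in the annotation were all but silent: LOC105608012 had 0 to 2 reads per liver library and 0 in every muscle library.

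**Figure D1:**
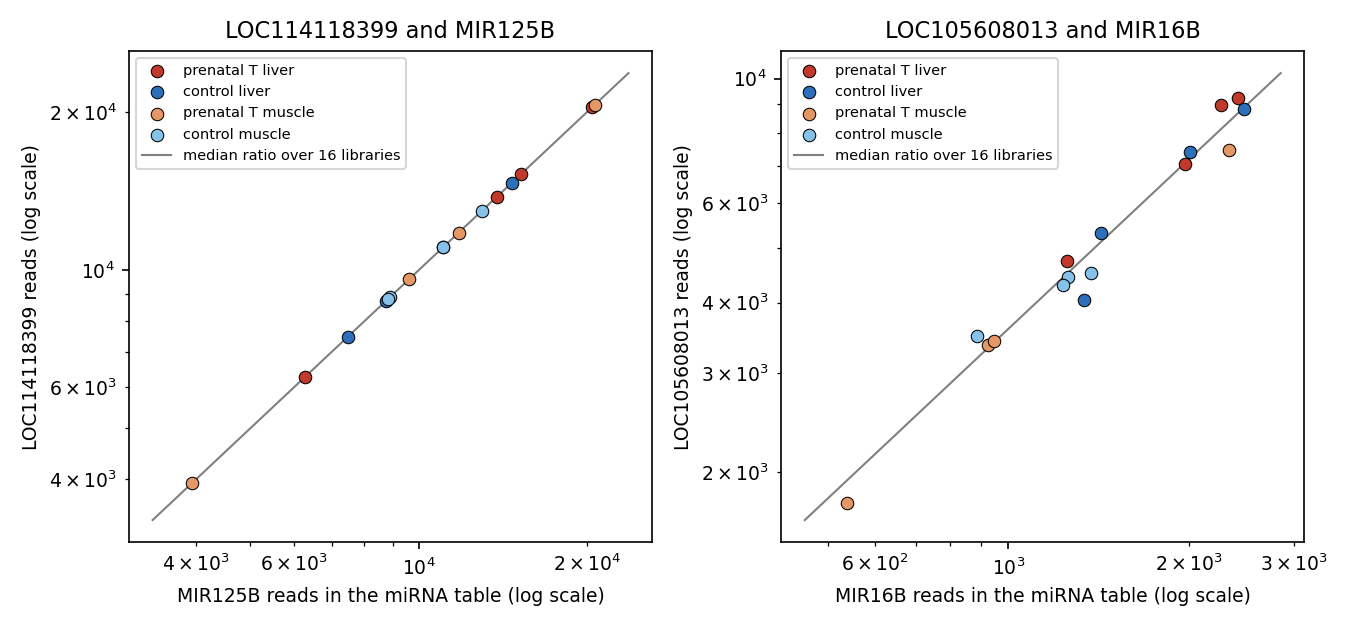
Reads of LOC114118399 against reads of MIR125B (left) and of LOC105608013 against MIR16B (right), both axes on a log scale, 1 point per library coloured by group; the grey line is the median ratio over the 16 libraries. The left points lie on the line, with equal reads in 15 of 16 libraries, and the right points scatter around it between ratios of 3.02 and 3.96.

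Shares of lncRNA reads differed widely by tissue. LOC114118399 took 16.5% of lncRNA reads in the liver of prenatal T ewe 48, 15.7% in ewe 185, 16.3% in ewe 233 and 19.2% in ewe 255, and 13.2% in control ewe 98, 14.4% in ewe 131, 16.6% in ewe 132 and 18.8% in ewe 201. The groups overlapped, with means of 16.9% ± 1.57 and 15.7% ± 2.46 (SD, n = 4 each). In muscle it took 2.23%, 2.45%, 2.13% and 3.21% in prenatal T ewes 48, 185, 233 and 255, and 1.98%, 2.46%, 2.86% and 2.11% in control ewes 98, 131, 132 and 201. The muscle means were 2.50% ± 0.488 and 2.35% ± 0.395, and prenatal T ewe 255 was the highest. Counting error was small beside this spread: the 95% Wilson interval of the highest liver share, 19.2%, ran from 18.9% to 19.5%.

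LOC105608013 took 7.22% of lncRNA reads in the liver of prenatal T ewe 48, 9.53% in ewe 185, 12.3% in ewe 233 and 9.82% in ewe 255, and 7.13% in control ewe 98, 8.76% in ewe 131, 11.1% in ewe 132 and 11.3% in ewe 201. In muscle it took 0.807%, 0.699%, 0.756% and 1.44% in prenatal T ewes 48, 185, 233 and 255, and 0.990%, 0.952%, 0.995% and 0.832% in control ewes 98, 131, 132 and 201. Its liver means were 9.72% ± 2.09 in prenatal T and 9.57% ± 1.99 in control ewes, and its muscle means 0.924% ± 0.344 and 0.943% ± 0.0756 (SD, n = 4 each). In muscle 3 of the 4 prenatal T ewes lay below every control ewe and ewe 255 lay above all of them, so the groups overlapped only through that library.

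LOC114118399 ranked 2 among lncRNAs in all 8 livers, 3 in the 4 prenatal T muscles and 3 or 4 in the control muscles. LOC105608013 ranked 3 or 4 in liver, 5 in the prenatal T muscles and 6 or 7 in the control muscles. LOC114112617 took 0.318% to 0.662% of lncRNA reads in prenatal T muscle and 1.25% to 4.18% in control muscle, and LOC114113790 took 0.114% to 0.252% and 0.418% to 1.58%. With both left out of the ranking, a choice made after their values were seen, LOC114118399 ranked 3 and LOC105608013 ranked 5 in all 8 muscles. Above both in liver stood LOC114110111 with 36.04% ± 4.63 of lncRNA reads, and directly below LOC105608013 stood LOC105602212 with 7.55% ± 1.18 (SD, n = 8). In muscle LOC105603743, with 36.6% ± 6.46, stood directly above LOC114118399, and LOC114112617, with 1.36% ± 1.30, directly below. LOC105608013 stood between LOC105611269 with 1.20% ± 0.181 and LOC114113790 with 0.522% ± 0.507 in muscle. In liver the mean of LOC114118399 lay farther than the summed SDs from LOC114110111 and LOC105608013, and that of LOC105608013 nearer than this to LOC105602212. In muscle LOC114118399 and LOC114112617 lay within the summed SDs, as did LOC105608013 with LOC105611269 and LOC114113790. These SDs pool both treatments. In prenatal T muscle LOC114118399 took 2.13% to 3.21%, above the range of LOC114112617. LOC105608013 took 0.699% to 1.44% there, above the range of LOC114113790. In control muscle the ranges of both pairs overlapped. These are orders of reads and not of reads per length, since LOC114118399 has no listed length.

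Within a library LOC114118399 had 1.33 to 2.28 times the reads of LOC105608013 in liver and 2.00 to 3.51 times in muscle. The ratio of reads averaged 1.73 ± 0.294 in liver and 2.66 ± 0.453 in muscle (SD, n = 8). By group it was 1.80 ± 0.410 in prenatal T liver and 1.66 ± 0.145 in control liver, and 2.83 ± 0.522 in prenatal T muscle and 2.50 ± 0.363 in control muscle (SD, n = 4 each). This ratio needs no scaling, and it lay higher in the muscle than in the liver of each of the 8 ewes, although the libraries of the 2 tissues overlapped between 2.00 and 2.28. Ewes 48, 98 and 255, with both libraries in the same run of numbers, had 2.28, 1.85 and 1.96 in liver and 2.76, 2.00 and 2.23 in muscle. The remaining ewes had 1.33 to 1.66 in liver and 2.53 to 3.51 in muscle. The part of the library run in this ratio was not tested.

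How far liver exceeded muscle depended on the total that the reads were set against, since the deposited values are scaled within each tissue and cannot be set side by side. In reads per 1000000 of the 4 classes (4-class RPM) LOC114118399 averaged 25407 ± 2253 in prenatal T liver and 24580 ± 3263 in control liver, and 12812 ± 2527 in prenatal T muscle and 11608 ± 1707 in control muscle (SD, n = 4 each). LOC105608013 averaged 14687 ± 3615 in prenatal T liver and 14885 ± 2455 in control liver, and 4727 ± 1760 in prenatal T muscle and 4661 ± 295 in control muscle. Levels of both genes overlapped between prenatal T and control ewes in each tissue. For LOC105608013 in muscle the overlap came only through prenatal T ewe 255, with 7350. Prenatal T ewes 48, 185 and 233 had 3613 to 4110, and the control ewes 4272 to 4944. Per read of the 4 classes together, LOC114118399 was 2.08 ± 0.332 times as high in liver as in muscle of the same ewe (SD, n = 8; range 1.71 to 2.72), above 1 in 8 of 8 ewes. Per miRNA read the ratio was 1.25 ± 0.201 (0.992 to 1.61), above 1 in 7 of 8. Per lncRNA read outside the 3 lncRNAs that lead the table (LOC114110111 in liver, LOC105604459 and LOC105603743 in muscle) it was 1.01 ± 0.182 (0.831 to 1.30), above 1 in 4 of 8. LOC105608013 had a mean above 1 under each of these totals: 3.31 ± 1.03 times per read of the 4 classes, 1.98 ± 0.614 times per miRNA read and 1.596 ± 0.483 times outside the 3 leading lncRNAs, above 1 in 8, 8 and 7 of 8 ewes. Of lncRNA reads, LOC105604459 and LOC105603743 held 53.8% ± 6.72 and 36.6% ± 6.46 in muscle, and LOC114110111 held 36.04% ± 4.63 in liver (SD, n = 8). The part of each leader in the gap in share between the tissues was not tested.

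The tissues differ in their library numbers, so the liver to muscle ratio of LOC105608013 is also given by run of numbers. In ewes 48, 98 and 255, whose liver and muscle libraries are in the same run of numbers, it was 2.46, 2.42 and 1.98 per read of the 4 classes, and in the other 5 ewes it lay between 3.05 and 4.93. These sets of ewes did not overlap, and it was not counted how many other lncRNAs separate the same ewes. For LOC114118399 these 3 ewes had ratios of 2.03, 2.23 and 1.73, within the 1.71 to 2.72 of the other 5. The part of the library run in the liver to muscle ratio was not tested.

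Set against lncRNA reads outside those 3 leaders, a total chosen after the data had been seen, LOC114118399 took 29.7% ± 1.34 in prenatal T muscle (28.4% to 31.1%) and 22.5% ± 2.39 in control muscle (20.5% to 25.9%; SD, n = 4 each), and these groups did not overlap. That total holds LOC114112617 and LOC114113790, which were lower in prenatal T muscle (log2 fold change -2.16 and -2.12, limma adjusted p = 0.027 and 0.035). Their part in the gap was not tested, and it was not counted how many other lncRNAs separate the groups on this total. As a share of all lncRNA reads and in normalised reads, LOC114118399 overlapped between the muscle groups. In liver the shares were 27.4% ± 2.11 and 24.4% ± 4.08, and the groups overlapped. LOC105608013 took 15.7% ± 2.86 in prenatal T liver and 14.9% ± 3.31 in control liver, and 10.7% ± 1.73 in prenatal T muscle and 9.16% ± 1.62 in control muscle, with overlap in both tissues.

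**Figure D2:**
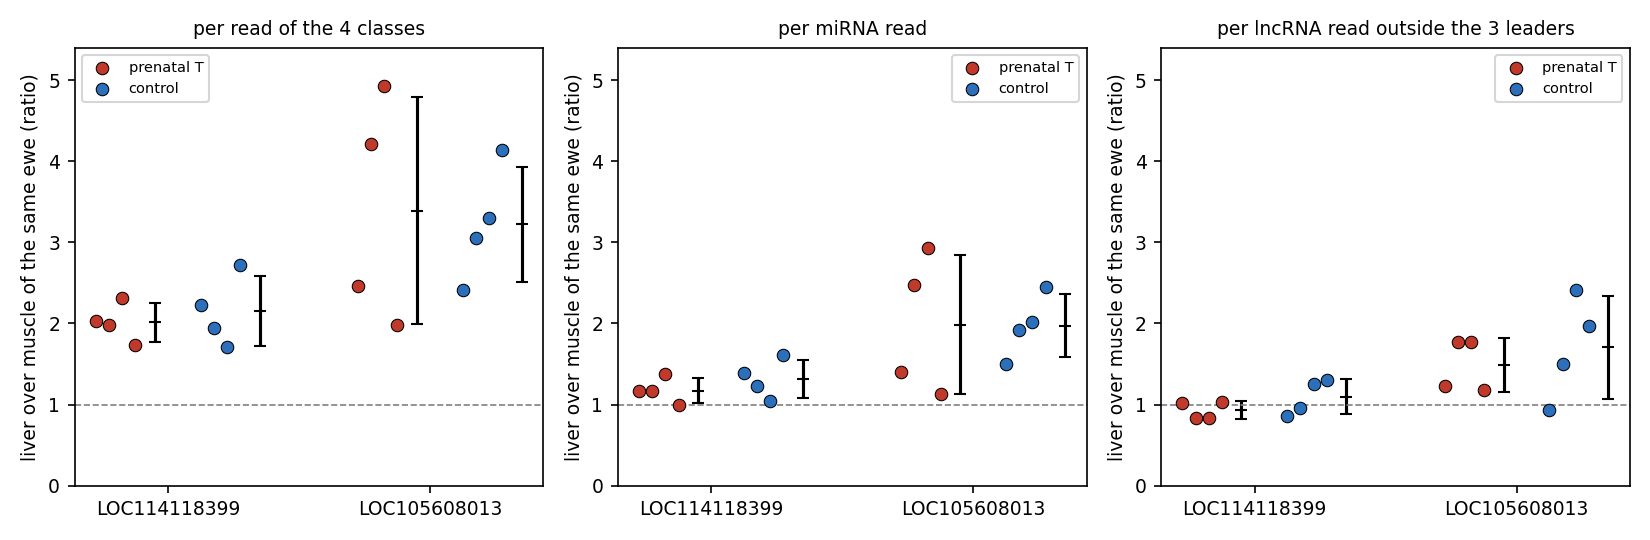
Ratio of the liver level to the muscle level of the same ewe for both lncRNAs, with reads set against the reads of the 4 classes (left), miRNA reads (middle) or lncRNA reads outside the 3 leading lncRNAs (right); points are ewes, bars the mean and SD over 4 ewes, and the dashed line a ratio of 1. Over the 8 ewes LOC114118399 averages 2.08 in the left and 1.01 in the right panel, and LOC105608013 3.31 and 1.596.

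Prenatal T exposure was compared with control within each tissue on the deposited normalised reads. For this contrast, which had no part in the choice of the genes, LOC114118399 had 12939, 11955, 11395 and 13460 normalised reads in the livers of prenatal T ewes 48, 185, 233 and 255, and 6851, 11125, 11067 and 12922 in those of control ewes 98, 131, 132 and 201. The prenatal T livers lay close together. Of the control livers, 3 lay below all of them, with ewe 98 far lower, and ewe 201 lay among them. The means were 12437 ± 934 and 10491 ± 2575 normalised reads (SD, n = 4 each). The log2 fold change was 0.28 (SE 0.22, 95% interval -0.20 to 0.77, limma adjusted p = 0.890), which did not pass the test. No lncRNA passed in liver (0 of 121 tested, 0%), with 0 at an unadjusted p under 0.05 in limma and 0 calls by edgeR and by DESeq2.

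Entered under MIR125B in the miRNA table, the same numbers of reads gave another value in liver. MIR125B had 10056, 13005, 10327 and 12244 normalised reads in prenatal T ewes 48, 185, 233 and 255, and 9930, 11360, 11166 and 14280 in control ewes 98, 131, 132 and 201. Here the highest liver was a control, and the groups overlapped throughout. The means were 11408 ± 1443 and 11684 ± 1843, and the log2 fold change was -0.030 (SE 0.17, 95% interval -0.39 to 0.33, limma adjusted p = 0.963), against 0.28 under the lncRNA name. None of the 81 liver miRNAs tested passed (0%), and 0 had an unadjusted p under 0.05. The values differ by the size factors of the tables: a lncRNA read was worth 1.10 ± 0.150 times a miRNA read of the same library in prenatal T liver and 0.891 ± 0.139 times in control liver (SD, n = 4 each), with 0.690 in ewe 98 the lowest of the 16 libraries.

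LOC105608013 had 5676, 7255, 8595 and 6868 normalised reads in the livers of prenatal T ewes 48, 185, 233 and 255, and 3706, 6753, 7408 and 7772 in those of control ewes 98, 131, 132 and 201. The lowest value was again the liver of ewe 98, and the remaining values of the groups were interleaved. The means were 7099 ± 1203 and 6410 ± 1851, with a log2 fold change of 0.19 (SE 0.26, 95% interval -0.40 to 0.78, limma adjusted p = 0.890). Without control ewe 98 the log2 fold change was -0.056 for LOC105608013 and 0.088 for LOC114118399, neither past the test. Among the 6 livers in the higher run of library numbers, 3 prenatal T and 3 control, LOC114118399 had a log2 fold change of 0.068 and LOC105608013 one of 0.046, again not past the test. The lower run holds 1 liver of each group and gives no test. MIR16B in the miRNA table gave -0.24 in liver (SE 0.23, limma adjusted p = 0.959).

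**Figure D3:**
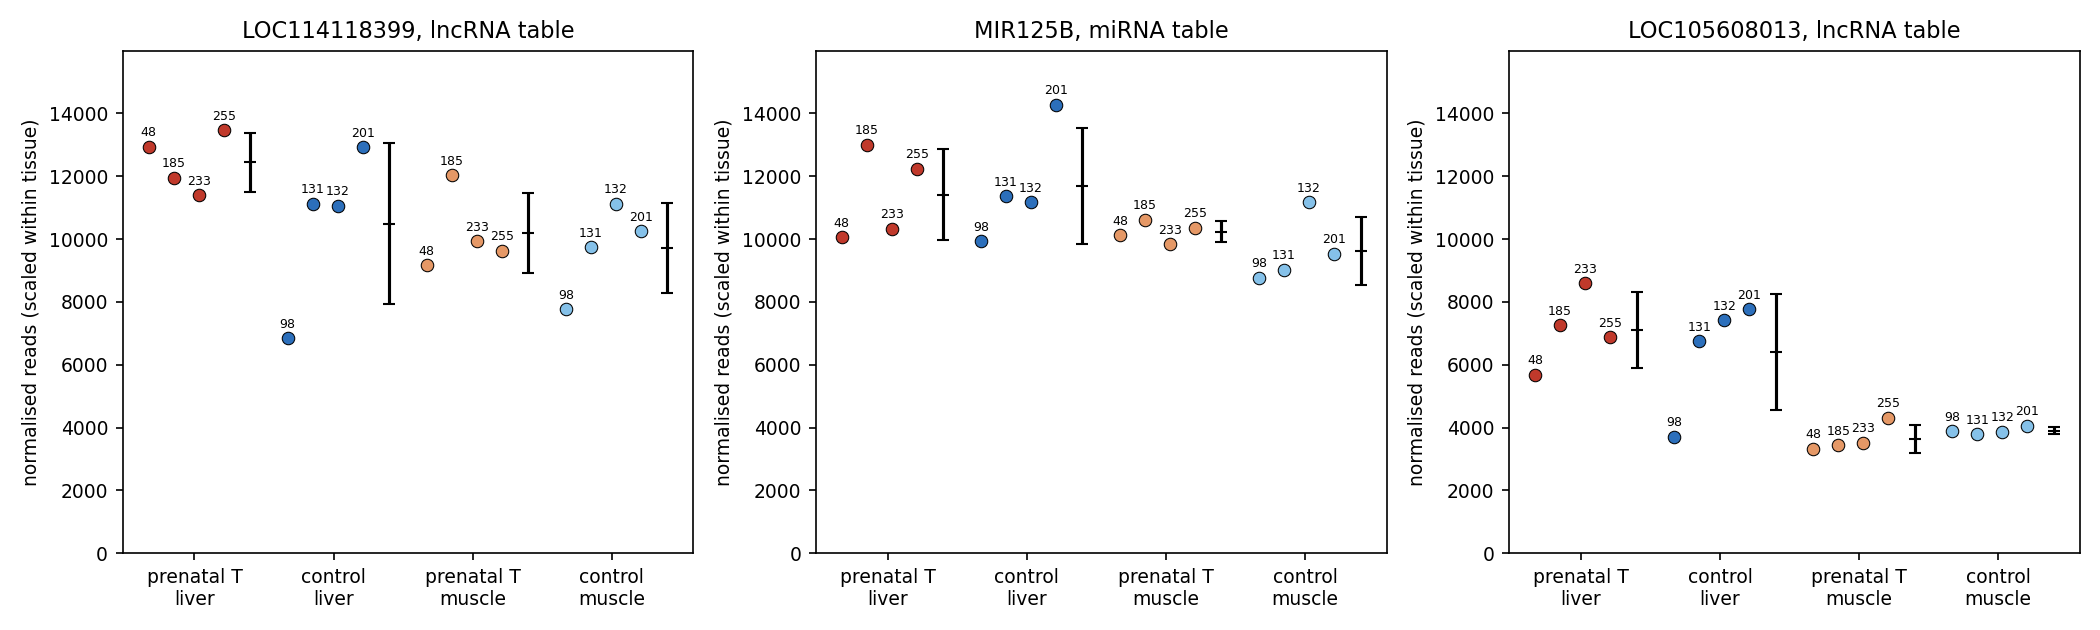
Normalised reads of LOC114118399 (left), MIR125B (middle) and LOC105608013 (right) in each library, labelled with the ewe number, by group; bars are the mean and SD of 4 ewes, and the values are scaled by the authors within each tissue and class. In liver LOC114118399 averaged 12437 in prenatal T and 10491 in control ewes, while MIR125B, with reads equal in 15 of 16 libraries, averaged 11408 and 11684.

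In muscle LOC114118399 had 9171, 12029, 9922 and 9626 normalised reads in prenatal T ewes 48, 185, 233 and 255, and 7761, 9747, 11129 and 10250 in control ewes 98, 131, 132 and 201. The groups overlapped, with prenatal T ewe 185 the highest and control ewe 98 the lowest. The means were 10187 ± 1266 and 9722 ± 1426, and the log2 fold change was 0.072 (SE 0.17, 95% interval -0.31 to 0.46, limma adjusted p = 0.966). Under MIR125B the muscle means were 10233 ± 333 and 9624 ± 1077 normalised reads and the log2 fold change 0.094 (SE 0.12, 95% interval -0.17 to 0.36, limma adjusted p = 0.788), with 0 of 64 miRNAs called (0%) and 5 at an unadjusted p under 0.05. A lncRNA read was worth about as much as a miRNA read in muscle, 0.994 ± 0.102 times in prenatal T and 1.01 ± 0.0911 times in control ewes.

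LOC105608013 had 3323, 3430, 3519 and 4309 normalised reads in the muscle of prenatal T ewes 48, 185, 233 and 255, and 3880, 3780, 3873 and 4053 in that of control ewes 98, 131, 132 and 201. The 4 control muscles lay within a narrow band that 3 prenatal T muscles undercut and ewe 255 exceeded. The means were 3645 ± 450 and 3896 ± 113.9, and the log2 fold change was -0.10 (SE 0.16, 95% interval -0.46 to 0.25, limma adjusted p = 0.966). Of the lncRNAs tested in muscle 4 passed (3.51%), and neither LOC114118399 nor LOC105608013 was among them. Without ewe 255, the only muscle library in the higher run of numbers, LOC105608013 had a log2 fold change of -0.19 and LOC114118399 one of 0.097, neither past the test. MIR16B gave -0.028 in muscle (SE 0.18, limma adjusted p = 0.936).

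In liver the upper bounds of 0.77 for LOC114118399 and 0.78 for LOC105608013 and the lower bounds of -0.20 and -0.40 mark the range of changes that the spread between 4 ewes a group did not separate from 0. In muscle the bounds were -0.31 to 0.46 and -0.46 to 0.25. On the deposited scaling the residual standard deviations of both genes lay below the median of the lncRNAs tested. On the log2 scale they were 0.29 and 0.39 in liver, against a median of 0.61 over 121 lncRNAs. In muscle they were 0.20 and 0.12, against a median of 0.52 over those tested there. LOC105608013 had the smallest value of the lncRNAs tested in muscle. Its share of lncRNA reads, by contrast, ran from 0.699% to 1.44% in prenatal T muscle. Abundant genes carry little counting error, and the pair was chosen for abundance. The medians run over lncRNAs with a mean of at least 5, and these values were not adjusted for level. Over lncRNAs with a mean of at least 50 the median was 0.396 in liver (38 lncRNAs), close to the 0.392 of LOC105608013. In muscle it was 0.389 (31 lncRNAs).

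The prenatal T effects in the 2 tissues were also set against each other. The difference, liver minus muscle, was 0.21 for LOC114118399 (SE 0.27, 95% interval -0.35 to 0.77) and 0.29 for LOC105608013 (SE 0.31, 95% interval -0.35 to 0.93), both with a limma adjusted p of 0.953. No lncRNA passed this test (0 of 153, 0%), and 7 had an unadjusted p under 0.05. Neither gene was therefore shown to respond differently in liver and muscle.

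**Figure D4:**
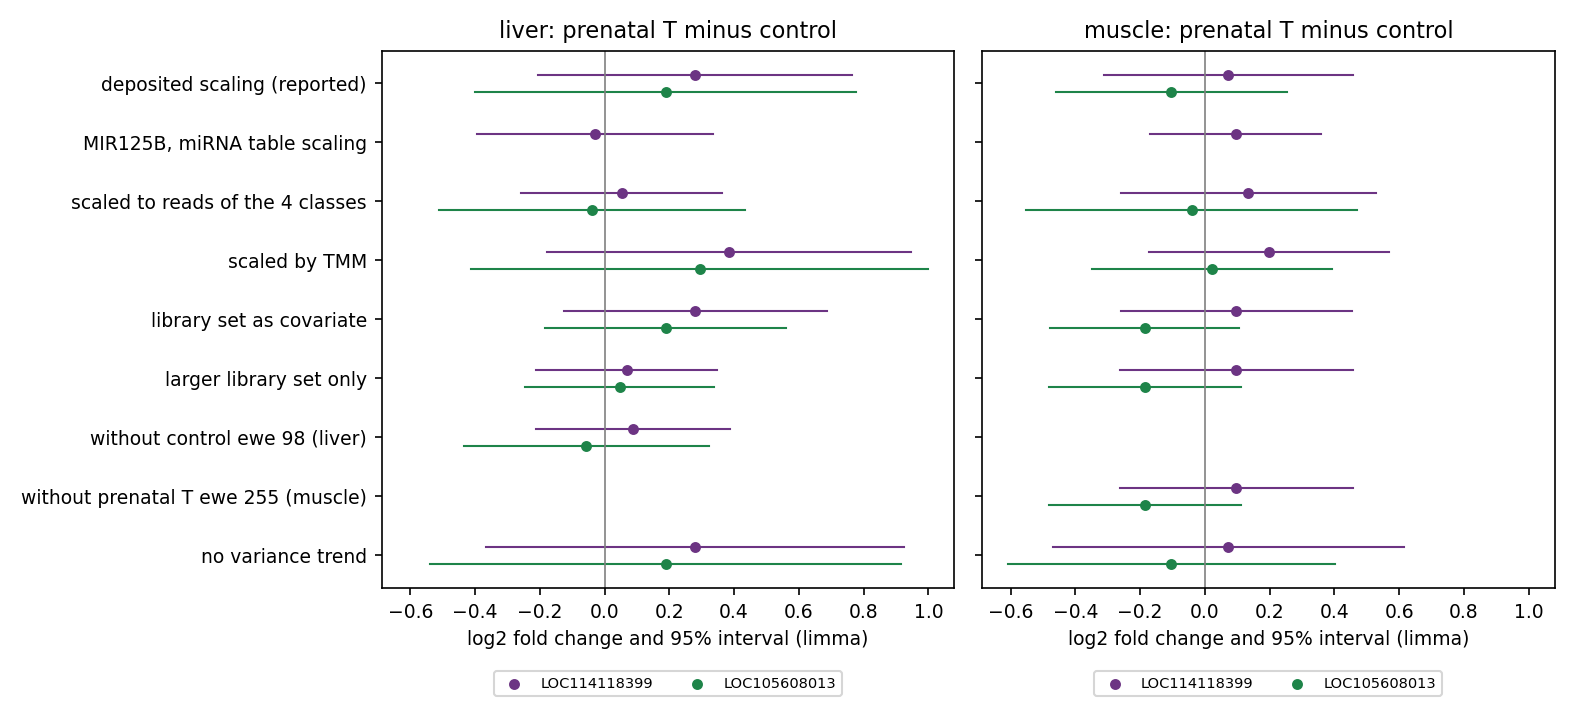
Log2 fold change of prenatal T minus control with its 95% interval (limma) for LOC114118399 (purple) and LOC105608013 (green) in liver (left) and muscle (right) under the deposited scaling and other settings; a setting that applies to 1 tissue or 1 gene is drawn only there. Every interval drawn spans 0, and the liver value of LOC114118399 lies at 0.28 as deposited, -0.030 as MIR125B and 0.088 without control ewe 98. In muscle the larger library set and the set without prenatal T ewe 255 are the same fit.

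The features whose pattern over the libraries was most like each gene were sought among 82 features with a mean of at least 50 normalised reads in both tissues: 29 lncRNAs, 42 miRNAs, 10 snoRNAs and 1 small nuclear RNA. Likeness was Pearson's r of log2 normalised reads as deviations from the tissue mean over 16 libraries, which share depth and the authors' scaling, and it is given without a test. For LOC114118399 the 3 nearest lncRNAs were LOC114116882 with r = 0.67, LOC114117599 with 0.65 and LOC105602212, the annotated host of MIR125B, with 0.60. The 3 nearest miRNAs were MIR125B with 0.58, MIR27A with 0.55 and MIR26A with 0.53. Within tissues MIR125B had r = 0.52 in liver and 0.73 in muscle. MIR27A had 0.78 in liver and -0.60 in muscle, and MIR26A had 0.66 and 0.15. In 4-class RPM, where LOC114118399 and MIR125B have a common scale, MIR125B had 1.0 and LOC105602212 -0.095. Entries with equal reads were thus less alike once each class had been scaled apart.

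For LOC105608013 the 3 nearest lncRNAs were LOC106990385 with r = 0.66, LOC114118399 with 0.60 and LOC105609364 with 0.51. The 3 nearest miRNAs were MIR27A with 0.84, MIR191 with 0.71 and MIR22 with 0.64. MIR16B came 6th among the miRNAs with 0.45, and reached 0.95 in 4-class RPM. Within tissues, LOC105608013 and MIR27A had r = 0.88 in the 8 livers and 0.45 in the 8 muscles. MIR191 had 0.76 in liver and 0.22 in muscle, and MIR22 had 0.90 in liver and -0.20 in muscle.

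Likeness between LOC114118399 and LOC105608013 was also taken within each tissue. Over the 8 livers their normalised reads had Pearson's r = 0.77 (exact permutation p = 0.098, adjusted 0.170 over 4 relations) and Spearman's rho = 0.12 (exact permutation p = 0.793), and r was -0.38 without the 2 livers farthest from the median of LOC114118399. In 4-class RPM liver r was 0.58 (exact permutation p = 0.127) and rho 0.76 (exact permutation p = 0.037, adjusted 0.147), with r = 0.76 after leaving out 2 libraries. In muscle r was -0.18 for normalised reads (exact permutation p = 0.689) and 0.64 in 4-class RPM (exact permutation p = 0.092, adjusted 0.170), with rho = -0.14 (exact permutation p = 0.752) and 0.19 (exact permutation p = 0.665). Without the 2 farthest libraries these muscle values were 0.36 and -0.63. None of the 4 relations passed the adjusted threshold, and 3 of them changed sign when 2 libraries were left out.

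The values of other lncRNAs that overlap genes for small RNAs are given for comparison. Of lncRNAs that overlap a miRNA gene in the annotation, 9 were in the data and 4 were tested in liver, all 4 with a positive log2 fold change and 0 past the test (median 0.19, against -0.081 over all lncRNAs tested). In muscle 5 were tested, 3 with a positive and 2 with a negative value and 0 past the test (median 0.0097, against -0.069). Of 36 lncRNAs that overlap a transfer RNA gene, 8 were tested in liver, 3 with a positive and 5 with a negative value and 0 past the test (median -0.16). In muscle 8 were tested, 4 with a positive and 4 with a negative value (median 0.028), and 1 fell, against 3.51% of all lncRNAs called there. Of 23 that overlap a snoRNA gene, 12 were tested in liver, 5 with a positive and 7 with a negative value (median -0.17), and 10 in muscle, 8 with a positive and 2 with a negative value (median 0.27), with 0 past the test in either tissue. LOC114118399 could be placed in none of these lists because the annotation does not list it, and LOC105608013 overlaps no miRNA, transfer RNA or snoRNA gene there. Only 1372 of the 2973 lncRNA symbols are listed, so the lists cover the listed genes alone.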

How the data were processed

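Liver and muscle small RNA libraries of 4 prenatal T and 4 control ewes were used. Per the labels' protocols, total RNA was extracted with Trizol and libraries were made with a NEBNext small RNA kit. Per the submitters' processing notes, featureCounts 1.6.1, cutadapt 3.2 and STAR 2.6.0c were used. How these were set, how overlapping features and strand were counted and which genome build served is not given in the sources used here. What the authors deposited is a normalised signal, called normalised counts by the tables' names: reads divided by a size factor per library, scaled within each class (miRNA, lncRNA, snoRNA, snRNA) and tissue. Of 10585 lncRNA and 1432 miRNA values above 0, 100% were whole multiples of the value of a single read, within 0.001 reads, which gave the reads used here.

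Prenatal T minus control was tested within a tissue with limma 3.58.1 (R 4.3.3, variance trend) on log2(value + 1), which understates changes of low genes, for all lncRNAs with a mean of at least 5, with Benjamini-Hochberg adjustment and a threshold of 0.05. Both genes passed this filter in both tissues. The difference between tissues was fitted over the 16 libraries. Alternatives used edgeR 4.0.16 and DESeq2 1.42.0 on the recovered reads, other scalings, filters and pseudocounts, and left out each ewe. The scripts were tested on simulated data. Each ewe is a separate animal, and p-values measure the spread between ewes. Same-numbered liver and muscle libraries come from the same animal, per the labels. Their deviations from group means had a median correlation of 0.13 (-0.22 to 0.57, 8 pairs). Pairs of different ewes of the same treatment had a median of -0.093 (-0.72 to 0.71, 24 pairs), a range that holds that of the same-ewe pairs. No pair of replicate libraries agreed within counting noise (lowest chi-square over degrees of freedom 6.11). Shares of a library have 95% Wilson intervals, which cover counting error alone because the reads carry no molecular identifiers.

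The genes, lists and tests were chosen with earlier results of these data known. Named genes are the pair, their annotated neighbours and overlapping genes, the 3 most alike lncRNAs and miRNAs, the lncRNAs next to them in rank and the marker miRNAs; MIR16B and MIR25 as the steadiest ratios, the 3 leading lncRNAs and the lncRNAs with equal reads were added after their values were seen. Marker lists for liver, muscle, erythroid cells (1 of 4 members in the data, MIR16B), leukocytes (1 of 4, MIR150) and endothelium and stroma (3 of 5) were used to check tissues. No sequence of either gene or of a miRNA is used here.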

Additional observations from a re-analysis of the deposited data

Results flagged for a closer look

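A single library stood far from the other 3 of its group, and it did so for LOC105608013 on 2 of the scales that use recovered reads. In the muscle of prenatal T ewe 255 LOC105608013 took 1.44% of lncRNA reads, against 0.699% to 0.807% in prenatal T ewes 48, 185 and 233. The same library had 7350 reads of LOC105608013 per 1000000 reads of the 4 classes, against 3613 to 4110 in the other 3. Among lncRNA reads outside the 3 leading lncRNAs the library did not stand apart, with 12.8% in ewe 255 against 8.67% to 11.05% in the other 3. Its 95% Wilson interval for the share was 1.37% to 1.504%, so counting error was small beside the gap. This muscle library was also the shallowest, with 122749 lncRNA reads, and had 371628 reads of MIR133 per 1000000 miRNA reads, below the 499836 to 563959 of the other 7 muscles; their part in the gap was not tested. Looking at 36 groups of 4 values found these 2, and chance gives such a value in about 1 group in 20, so about as many would arise by chance.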

How the results depend on the processing

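Neither LOC114118399 nor LOC105608013 passed the prenatal T test under any alternative run, in liver, in muscle or for the difference between them; over these the limma, edgeR or DESeq2 adjusted p lay between 0.674 and 0.998. The sign of the reported value held in 20 of 21 alternatives for LOC114118399 and 18 of 20 for LOC105608013 in liver, in 19 of 21 and 18 of 20 in muscle, and in 12 of 13 and 13 of 13 for the difference. In liver LOC114118399 was -0.030 as MIR125B and LOC105608013 -0.039 when scaled to the 4 classes, a scaling that moved the median of all lncRNAs from -0.081 to -0.29. In muscle LOC105608013 was 0.022 with TMM scaling and 0.029 with edgeR. The larger library set in muscle is the set without prenatal T ewe 255, so this fit is counted under both names. The library set as a covariate sets the same library apart there. The difference for LOC114118399 was -0.082 when scaled to the 4 classes. The likeness of LOC105602212 to LOC114118399 was -0.095 in reads per 1000000 of the 4 classes. Leaving out each ewe gave log2 fold changes of 0.088 to 0.39 for LOC114118399 and -0.056 to 0.30 for LOC105608013 in liver, -0.032 to 0.14 and -0.19 to -0.061 in muscle, and 0.12 to 0.31 and 0.049 to 0.39 for the difference. LOC114118399 in muscle turned to -0.032 without control ewe 98 and -0.011 without prenatal T ewe 185. With the ewe as a block, which pairs the tissues of an animal, the differences were 0.21 (SE 0.23, adjusted p = 0.913) and 0.29 (SE 0.30, adjusted p = 0.890), with 0 calls, and the block changed no call.

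The count of 4 lncRNAs called in muscle was 5 with DESeq2 or with no filter on low values. It stayed at 4 with edgeR, a pseudocount of 0.5 or the library set as a covariate. It was 3 with a pseudocount of 5 or when scaled to the 4 classes, and 2 with a mean of at least 50 or with TMM. It was 1 with no variance trend and 0 with a single spread over 16 libraries. Without each ewe it was 1 to 4: 2 without control ewe 131 or 201, and 1 without control ewe 132 or prenatal T ewe 48 or 233. The difference had 0 to 3 calls, 3 without ewe 98. The cause was not tested. Against lncRNA reads outside the 3 leaders, LOC114118399 took 27.4% (prenatal T) and 24.4% (control) of liver reads and 29.7% and 22.5% of muscle reads, and LOC105608013 15.7% and 14.9% in liver and 10.7% and 9.16% in muscle. The muscle total holds LOC114112617 and LOC114113790, both lower in prenatal T muscle, and their part in these shares was not tested. The lowest count in any library was 1763 reads for LOC105608013 and 3938 for LOC114118399; what limits the fold changes was not tested.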
